A study of Mus musculus with 15 samples.

Results

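The α-globin gene block of the mouse holds the embryonic gene Hba-x and the adult genes Hba-a1 and Hba-a2. Contacts of the adult α-globin promoters within this block were measured by NG Capture-C, in which chromatin is cut with DpnII, neighbouring fragments are joined by ligation, and the products that contain a chosen promoter are enriched with oligonucleotides, here in 2 rounds. Members were the DpnII fragments of chromosome 11 of the gene block (mm9, outer ends 32170702 and 32204979) that lay more than 2 kb from the midpoints of both stretches left empty at the captured promoters. These viewpoint gaps spanned 32182317 to 32184781 and 32194990 to 32197598. The rule used position only and gave 61 of the 778244 fragments listed in the α-globin tables. Of these, 31 lay before the first gap (the Hba-x side, 32170702 to 32181398), 19 between the adult genes (32185293 to 32194503) and 11 after the second gap (downstream of the second adult gene, 32198229 to 32204979). A further 6 fragments of the block lay within 2 kb of a gap midpoint and were left out. All 61 members had at least 1 read in each of the 15 libraries, and all 61 reached the 90 reads over the 9 replicated libraries that were required for a test.

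Of the 15 libraries, 14 came from erythroid cultures of fetal liver (E12.5, F1 C57Bl6/CBA strain). Per the labels' protocols, cells grew for 5 to 7 days with erythropoietin, stem cell factor and dexamethasone, Ter119-positive cells were then removed, and the remainder matured for 18 hours at high erythropoietin. Control cells have no knockout in their labels, R1R2_KO lacked the α-globin elements R1 and R2, and R2R3_KO lacked R2 and R3, with 3 libraries each. R1_KO, R2_KO, R3_KO, Rm_KO and R4_KO lacked the single element that they are named for and had 1 library each, as did ES cells of the E14 line (129/Ola strain), an established line with no knockout in its labels that is not erythroid. The labels call the replicates biological and do not say whether they shared a litter or a culture day, so p-values cover no variation beyond these libraries.

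Erythroid cells build haemoglobin from α- and β-type globin chains. Hba-x encodes the ζ chain made by the first red cells of the yolk sac, and Hba-a1 and Hba-a2 encode the α chain of fetal liver and adult red cells. The adult genes are driven by a cluster of elements that lies upstream of the block, partly in introns of the housekeeping gene Nprl3, and that contacts the promoters when the genes are active. In stem cells the α-globin genes are silent.

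In the RefSeq gene table of GRCm38.p6, another build that served only for names, order and sequences, the order is Nprl3, Hba-x, Hba-a1, Hbq1b, Hba-a2, Hbq1a, with Hbq1b and Hbq1a the θ-like genes that follow each adult gene. The starts of Hba-a1 and Hba-a2 are 12820 bases apart there, and the gap midpoints of the deposited tables are 12745 bases apart. The start of Hba-x lies 7072 bases before that of Hba-a1. The 250 bases before each gene start, from RefSeq, plus strand, 5′ to 3′, are shown because they tell the embryonic promoter from the adult ones and the adult ones cannot be told from each other. Capitals mark the motifs GATAA (the core that GATA factors bind), CACCC (bound by KLF factors), CCAAT and TATAA searched on both strands, and no match overlapped another. The windows are chr11:32276350-32276599 for Hba-x, chr11:32283422-32283671 for Hba-a1 and chr11:32296242-32296491 for Hba-a2, all in GRCm38.p6 and not comparable with the mm9 positions used elsewhere.
Hba-x: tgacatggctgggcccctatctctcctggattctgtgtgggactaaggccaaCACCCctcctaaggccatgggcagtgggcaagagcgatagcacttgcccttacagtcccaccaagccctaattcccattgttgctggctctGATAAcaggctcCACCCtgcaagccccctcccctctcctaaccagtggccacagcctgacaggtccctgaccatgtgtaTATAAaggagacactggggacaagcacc
Hba-a1: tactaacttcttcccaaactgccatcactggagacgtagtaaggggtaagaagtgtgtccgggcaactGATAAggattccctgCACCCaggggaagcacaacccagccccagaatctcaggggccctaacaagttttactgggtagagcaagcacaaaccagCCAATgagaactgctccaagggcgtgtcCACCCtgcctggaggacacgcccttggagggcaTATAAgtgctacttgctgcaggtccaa
Hba-a2: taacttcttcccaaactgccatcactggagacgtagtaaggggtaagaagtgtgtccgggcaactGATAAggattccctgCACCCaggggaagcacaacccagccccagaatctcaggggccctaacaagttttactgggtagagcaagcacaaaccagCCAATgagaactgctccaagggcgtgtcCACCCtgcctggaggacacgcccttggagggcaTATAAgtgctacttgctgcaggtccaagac

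The promoter windows of Hba-a1 and Hba-a2 were identical over all 247 bases that they share once shifted by 3 bases. At the best shift without gaps, Hba-x matched Hba-a1 at 74 of 248 bases. Hba-a1 and the θ-like Hbq1b matched at 74 of 249 in the same way, so no likeness is read from such a value. Hba-x held GATAA at -107, CACCC at -198 and -95 and TATAA at -28, counted back from the gene start, and no CCAAT. Hba-a1 held GATAA at -182, CACCC at -167 and -60, CCAAT at -88 and TATAA at -27. Among 32851 promoter windows of this length, 22.6% held GATAA, 52.0% CACCC, 33.8% CCAAT and 22.8% TATAA. The windows of Hbq1b and Hbq1a matched at 239 of 250 bases. How reads shared by such near-identical copies were assigned is unknown here, so values of fragments at the adult and θ-like genes are uncertain in how they divide between the copies. No window of the 5 genes held GATC, the site of DpnII, which 41.9% of promoter windows held.

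The replicated libraries held 66880 to 138216 reads in the α-globin table, 43695 to 93021 of them on chromosome 11 and more than 2 kb from the gap midpoints. The 6 unreplicated libraries were deeper, with 253928 to 564967 such reads, and lay in a table without a control. Levels are reads per 100000 of these chromosome 11 reads. The labels of the pairs were checked at the deleted elements: in R1R2_KO, R1 kept 25.6% and R2 11.8% of the control mean, and in R2R3_KO, R2 kept 10.3% and R3 8.47% (element ends were set from the single knockouts).

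In control cells the adult promoters contacted both flanks of the first adult gene at like density over the summed length, and the downstream flank least. The Hba-x side held 11896, 14330 and 13979 reads per 100000 in the 3 control libraries, a mean of 13402 ± 1316 (SD, n = 3). The part between the adult genes held 11716, 11425 and 13143, a mean of 12094 ± 919. The downstream part held 2668, 2440 and 2649, a mean of 2586 ± 126. Per kb these were 1253 ± 123, 1313 ± 99.8 and 383 ± 18.7, so the downstream part lay below both others in every control library and those did not separate from each other. Taken by fragment, the median density in control was 1917, 1486 and 594 per kb in the same order. The size of these differences thus depends on the mix of fragment lengths.

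**Figure D1:**
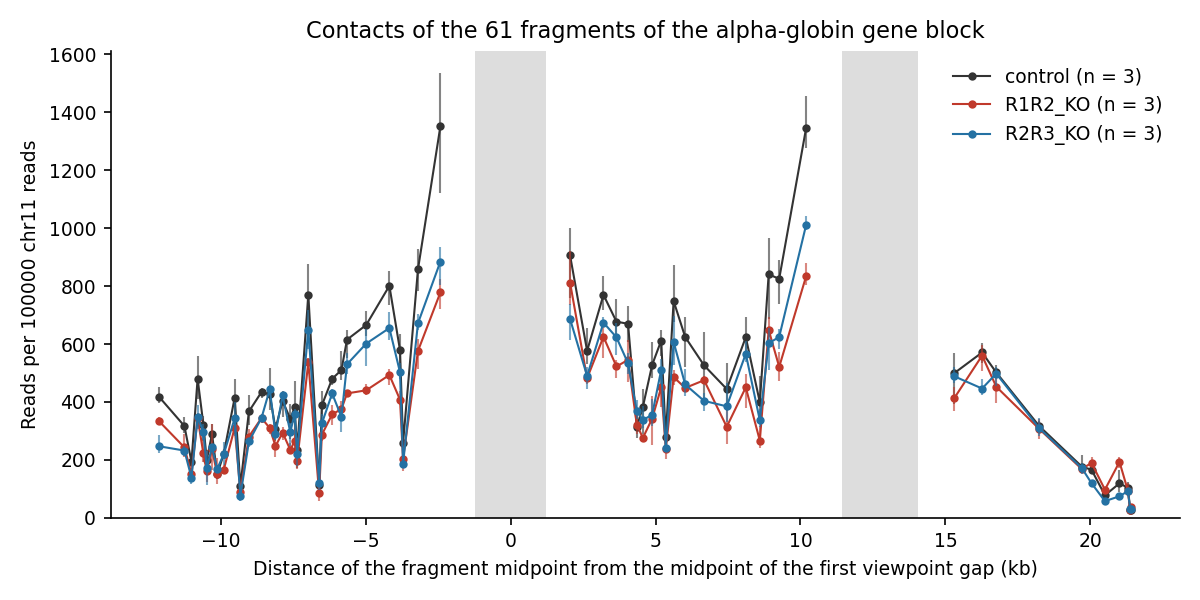
Mean level of each of the 61 fragments (points) in control, R1R2_KO and R2R3_KO, with vertical lines from the lowest to the highest of 3 libraries, against distance in kb from the midpoint of the first viewpoint gap; grey bands are the gaps. The highest control levels are 1351 for the last member of the Hba-x side and 1345 for the last member between the adult genes, and levels are lower towards the end of the downstream part.

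Levels of single fragments followed their length (across members, r of log2 length with log2 level was 0.75 on the Hba-x side, 0.74 between the adult genes and 0.81 downstream), so they were also set per kb. On this scale a 37-base fragment of the Hba-x side (32179817 to 32179853) was highest in control with 6993 reads per 100000 and kb, followed by a 21-base fragment (32176929 to 32176949, 5339) and a 97-base fragment (32177661 to 32177757, 5261). Between the adult genes the highest were a 50-base fragment (32188876 to 32188925, 5594), 32192648 to 32192980 (2478) and 32188610 to 32188875 (2301). Downstream they were 32200138 to 32200469 (1512), a 26-base fragment (32204913 to 32204938, 1015) and 32199493 to 32200137 (885). On the Hba-x side and between the adult genes the highest density thus belonged to a fragment of 37 or 50 bases. Downstream it belonged to a 332-base fragment, where the median length was 371. Density was lower in longer fragments in each part (r of -0.86, -0.87 and -0.59 between the logarithms). Density is level divided by length, so a negative r is partly built in and says nothing on contact by itself. At the edges, the left-out fragment 32181399 to 32182316 held 672 in control, and the fragments just outside the block held 650 (32169922 to 32170701) and 101 (32204980 to 32205648).

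Without R1 and R2, contact fell on the Hba-x side and between the adult genes and gave no call downstream. The Hba-x side held 9073, 9894 and 9693 in the R1R2_KO libraries, a mean of 9553 ± 428, and every one of them lay below every control library. Its log2 change was -0.49 (SE 0.06, edgeR adjusted p = 2.46e-15 over 99 windows). edgeR takes its spread from all windows, or all fragments, fitted together. The SE and p-values from edgeR thus do not rest on the libraries of 1 part alone. The part between the adult genes held 8463, 9512 and 9206, again all below the controls, with a log2 change of -0.42 (SE 0.06, adjusted p = 1.80e-11). The exact two-sided permutation p of both was 0.1, the smallest that 3 libraries against 3 allow. The downstream part held 2422, 2493 and 2706, which overlapped the controls, with a log2 change of -0.03 (SE 0.06, adjusted p = 0.662).

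How the other windows moved depended on the scale. Of the 99 windows tested within 500 kb (the 3 parts of the block and windows of 10 kb), 73.7% were called higher and 5.05% lower in R1R2_KO. With TMM factors 14.1% were higher and 23.2% lower, with DESeq2 6.59% and 24.2% of the 91 windows it tested, and with chromosome 11 reads outside the cluster and the block 28.3% and 15.2%. On the main scale the 5 lower windows were the Hba-x side, the part between the adult genes and the 3 windows from 32140853 to 32170701, which hold the enhancer cluster. The median window changed by 0.76 on that scale, by 0.12 with TMM factors and by 0.052 with DESeq2, and relative to it the Hba-x side changed by -1.25, the part between the adult genes by -1.18 and the downstream part by -0.79. Over 6 ways to scale the libraries the values relative to the median window ran from -1.26 to -1.24, -1.19 to -1.16 and -0.79 to -0.78. Subtracting the median window takes out any factor shared by all windows, so this narrow range follows from the subtraction. It is no check on the scale. The sign of the downstream change itself followed the scale: it was -0.73 with DESeq2 (adjusted p = 1.28e-15) and 0.23 with reads within 500 kb as the scale (edgeR adjusted p = 0.000101). The Hba-x side and the part between the adult genes were lower with every scale run, and neither passed when the reads of the block itself were the scale (-0.08, adjusted p = 0.0565, and -0.01, adjusted p = 0.836).

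**Figure D2:**
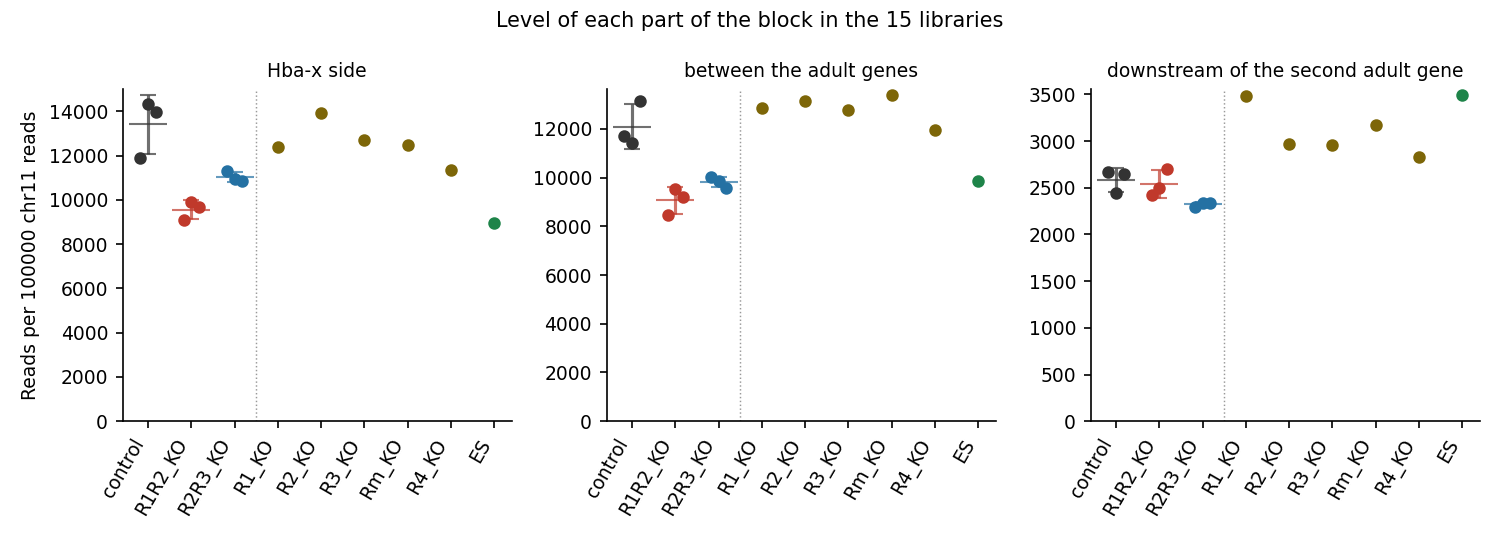
Level of each part of the block (reads per 100000 chr11 reads) in all 15 libraries, 1 point per library, with mean and SD for the groups of 3; the dotted line parts the replicated libraries from the unreplicated ones, which come from another table. On the Hba-x side R1R2_KO and R2R3_KO lie below control, the 5 single knockouts lie between 11352 and 13923, and ES cells hold 8971.

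Of the 61 members, 36 were called lower and 1 higher in R1R2_KO. Over all 403 fragments tested, 23.3% were lower and 4.71% higher, 28% together. In 33 members every R1R2_KO library lay below every control library and in 3, all downstream, above, beside 26.1% and 9.68% of all fragments tested. By part, 22 of 31 were lower on the Hba-x side, 14 of 19 between the adult genes and none of 11 downstream, where 1 was higher. All 31 log2 changes on the Hba-x side were below 0, with a median of -0.43, against -0.46 between the adult genes, -0.04 downstream and -0.04 over all fragments tested.

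The lowest change belonged to the member nearest the first gap on the Hba-x side, 32180845 to 32181398. It held 1120, 1537 and 1397 in control and 722, 826 and 786 in R1R2_KO, with no overlap (log2 change -0.80, SE 0.11, edgeR adjusted p = 1.07e-08). The next lowest were 32179084 to 32179641 on the same side (-0.70) and 32192981 to 32194503 (-0.69), the last member before the second gap. The latter held 1302, 1276 and 1458 in control and 805, 817 and 880 in R1R2_KO. All 3 passed in each of the 20 alternatives that could test them. On the Hba-x side the change was more negative nearer the gap (r of 0.58 between distance and log2 change over 31 fragments of the same libraries), and it was also more negative in longer fragments (r of -0.48 with log2 length). Between the adult genes r with distance was -0.07.

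**Figure D3:**
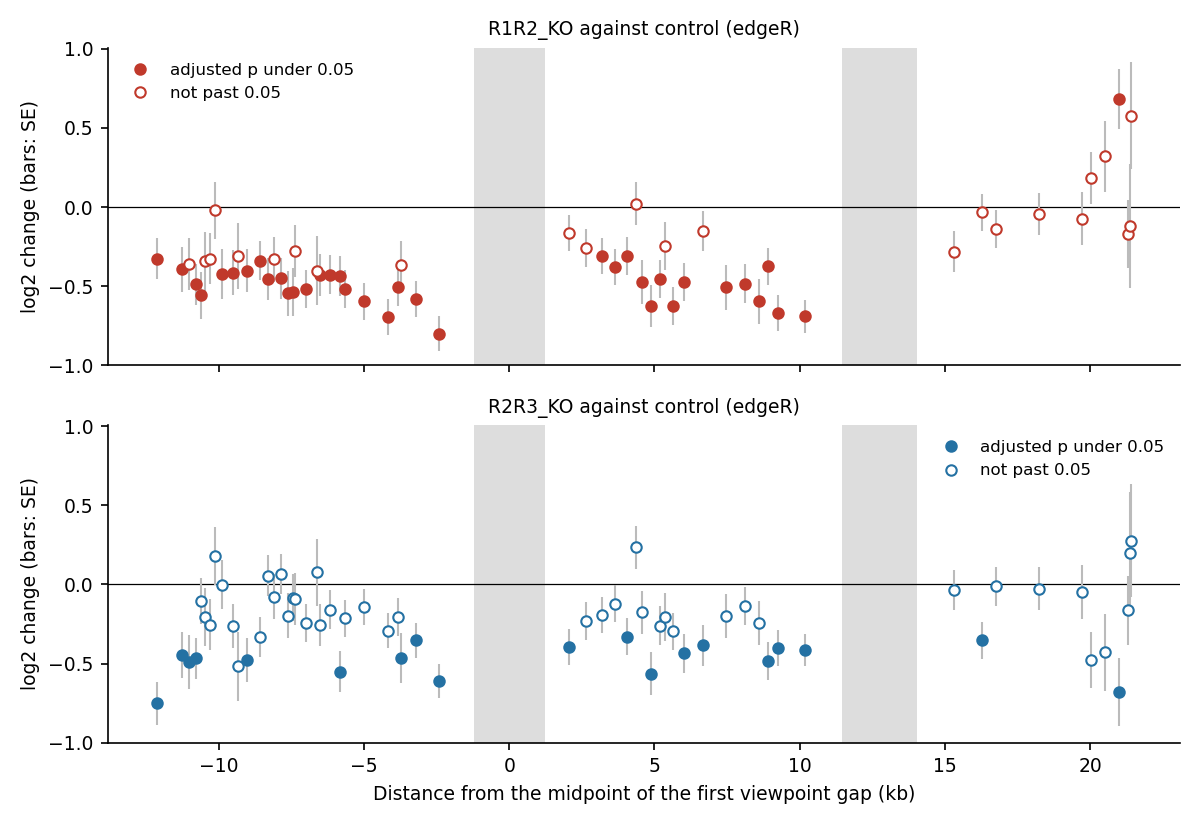
log2 change from control of each of the 61 fragments in R1R2_KO (upper) and R2R3_KO (lower) with SE bars from edgeR, against distance in kb from the midpoint of the first gap; filled points have an adjusted p under 0.05. In R1R2_KO the fragments before the second gap lie at or below 0.02 and 1 fragment near 21 kb is called higher at 0.68; in R2R3_KO the same fragment is called lower at -0.68.

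Without R2 and R3 all 3 parts were called lower, the downstream part narrowly. The Hba-x side held 11281, 10951 and 10869 in the R2R3_KO libraries, a mean of 11033 ± 218, below every control library (log2 change -0.28, SE 0.06, edgeR adjusted p = 2.31e-05). The part between the adult genes held 10022, 9853 and 9589, also below every control (-0.30, SE 0.06, adjusted p = 5.44e-06). Downstream they held 2293, 2332 and 2337 against 2440 to 2668 in control (-0.16, SE 0.06, adjusted p = 0.0307). By exact permutation each gave p = 0.1. The downstream call was lost without any 1 of the 3 R2R3_KO libraries or without control 1 or 3 (adjusted p from 0.0684 to 0.102), and its sign turned with reads within 500 kb as the scale (0.04). That scale also ended the call of the Hba-x side (-0.08, adjusted p = 0.0818), and with reads of the block as the scale no part passed. Of the 99 windows, 42.4% were higher and 6.06% lower, the 6 lower being these 3 parts and the 3 windows of the enhancer cluster, and the median window changed by 0.41. With TMM factors 1.01% were higher and 14.1% lower (median -0.043), with DESeq2 1.52% and 18.2% of 66 windows (median 0.023), and with chromosome 11 reads outside the cluster and the block 3.03% and 11.1% (median 0.051). On the main scale, relative to that median the parts changed by -0.69, -0.71 and -0.57.

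At single fragments 19 members were lower and none higher in R2R3_KO, beside 14.6% lower and 1.99% higher over all fragments tested (16.6% together). In 26 members every R2R3_KO library lay below every control library and in none above, beside 20.6% and 8.93%. The 19 called members were 9 of 31 on the Hba-x side, 8 of 19 between the adult genes and 2 of 11 downstream. The count was 8 without R2R3_KO library 2 or 3 and 10 without control library 3, and DESeq2 gave 12. The lowest was the first fragment of the block, 32170702 to 32172142, which faces the enhancer cluster. It held 453, 400 and 398 in control, 330, 348 and 321 in R1R2_KO and 284, 226 and 231 in R2R3_KO, and the 3 groups did not overlap (log2 change in R2R3_KO -0.75, SE 0.14, edgeR adjusted p = 1.17e-05). The other lowest were 32204332 to 32204781 (-0.68), described further on, and 32180845 to 32181398 (-0.61), which led the R1R2_KO list. In both pairs 13 fragments were lower, 36.1% of the R1R2_KO list and 68.4% of the R2R3_KO list, and both comparisons use the same control libraries.

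Set against each other, the pairs differed on the Hba-x side and at the far downstream edge. The Hba-x side was higher in R2R3_KO than in R1R2_KO by 0.21 (SE 0.06, edgeR adjusted p = 0.00275), with every R2R3_KO library above every R1R2_KO library. This call was lost with all reads of the table as the scale (0.11, adjusted p = 0.384). The difference was 0.12 between the adult genes (adjusted p = 0.0866) and -0.13 downstream (adjusted p = 0.0944). Of all 99 windows 32.3% were called lower and 4.04% higher in R2R3_KO than in R1R2_KO, against 11.1% and 15.2% with TMM factors and 1.56% and 32.8% of 64 windows with DESeq2. Of the members, 4 were lower and 5 higher in R2R3_KO, beside 3.72% and 6.45% over all fragments tested (10.2% together). In 18 members, 11 of them on the Hba-x side, every R2R3_KO library lay above every R1R2_KO library and in 6 below, beside 17.6% and 9.93%. The 5 higher ones all lay on the Hba-x side, led by 32175502 to 32175856 (0.52), 32175105 to 32175362 (0.51) and 32178043 to 32179083 (0.45). The first of these held 347, 427 and 437 in control, 314, 298 and 270 in R1R2_KO and 417, 430 and 421 in R2R3_KO, so that R2R3_KO lay within the range of control and R1R2_KO below it. All 3 lost the call with all reads of the table as the scale, and 32178043 to 32179083 also without R2R3_KO library 1.

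At the downstream edge, 3 neighbouring fragments were lower in R2R3_KO than in R1R2_KO. The fragment 32204332 to 32204781 held 166, 103 and 88 in control, 171, 197 and 211 in R1R2_KO and 73, 77 and 73 in R2R3_KO, so the 3 groups did not overlap. It differed by -1.36 between the pairs (SE 0.21, edgeR adjusted p = 7.61e-07) and passed in all 21 alternatives, with values from -1.46 to -1.24. Against control it was the only member called higher in R1R2_KO (0.68, SE 0.19, adjusted p = 0.00386) and was called lower in R2R3_KO (-0.68, SE 0.22, adjusted p = 0.0205). The rise kept its sign in all 21 alternatives and lost its call without control library 3 and with chromosome 11 reads outside the cluster and the block as the scale (0.21). The fall lost its call in 6 of 21, among them DESeq2, reads within 500 kb as the scale, control library 1 left out and each R2R3_KO library left out in turn. Without control library 1 it was -0.36 (adjusted p = 0.325), and in the other 5 it ran from -0.70 to -0.49. In the unreplicated libraries the fragment held 127 to 175.

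The 2 fragments before it went the same way between the pairs. The fragment 32203406 to 32203776 held 176, 163 and 159 in control, 181, 209 and 180 in R1R2_KO and 124, 109 and 126 in R2R3_KO (-0.66 between the pairs, adjusted p = 0.00655, past 0.05 in all 21 alternatives). The fragment 32203777 to 32204331 held 101, 59 and 74 in control, 102, 108 and 82 in R1R2_KO and 59, 61 and 53 in R2R3_KO (-0.75, adjusted p = 0.0366). The latter lost its call in 8 of 21 alternatives, 5 of them with 1 library left out. Neither was called against control. The next fragment, 32204782 to 32204912, held 76 to 123 in control, 76 to 121 in R1R2_KO and 82 to 101 in R2R3_KO, with a difference of 0.01 between the pairs.

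The share of each part within the block does not depend on the reads elsewhere. The downstream part held 10.2%, 8.65% and 8.90% of block reads in the control libraries and 12.14%, 11.38% and 12.52% in the R1R2_KO libraries, with no overlap. The means were 9.23% ± 0.80 and 12.01% ± 0.58, a difference of 2.78 points (exact two-sided permutation p = 0.1, Benjamini-Hochberg adjusted p = 0.3 over 9 tests). In R2R3_KO the share was 9.72%, 10.1% and 10.3%, which overlapped control (difference 0.78 points, exact p = 0.3) and lay below every R1R2_KO library (difference -2.00 points, exact p = 0.1). The Hba-x side held 45.3%, 50.8% and 47.0% in control, 45.5%, 45.2% and 44.9% in R1R2_KO and 47.8%, 47.3% and 47.7% in R2R3_KO. The control libraries alone spanned more than the difference of -2.51 points between the means of R1R2_KO and control (exact p = 0.2), which ran from -3.72 to -0.94 points with 1 library left out. The part between the adult genes held 42.8% ± 0.55 in R1R2_KO and 42.4% ± 0.27 in R2R3_KO against 43.1% ± 2.23 in control (exact p = 0.9 and 0.5), and the R1R2_KO difference ran from -1.55 to 0.48 points with 1 library left out. After adjustment none of the 9 shares passed, which with 3 libraries a group no exact test could.

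**Figure D4:**
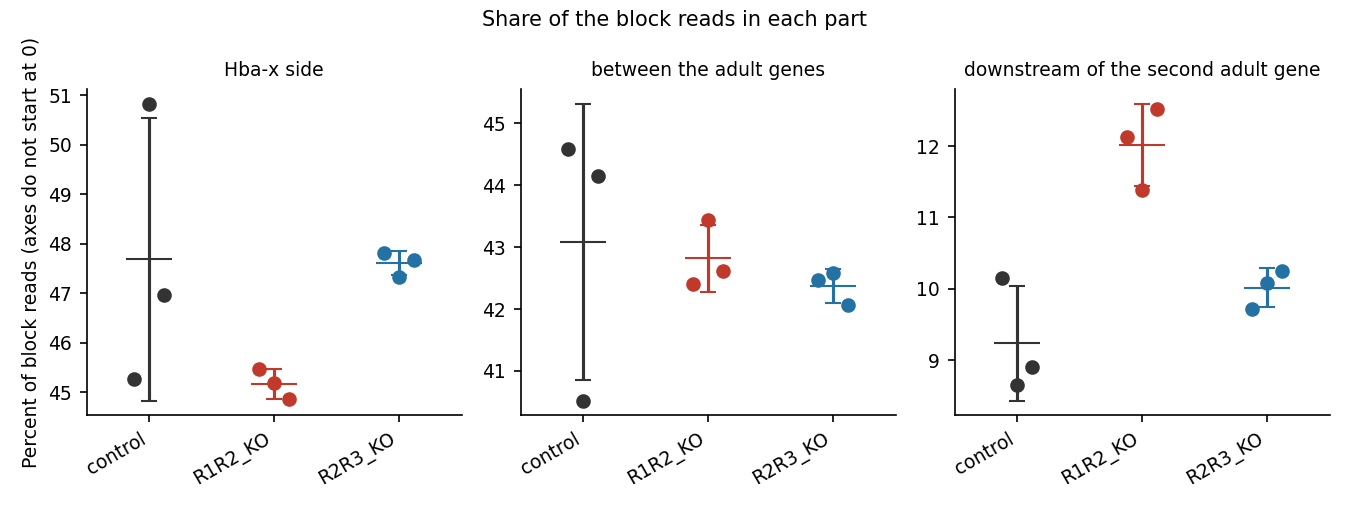
Percent of the block reads that fell in each part, 1 point per library with mean and SD, for the 3 libraries each of control, R1R2_KO and R2R3_KO; the vertical axes do not start at 0 and differ between panels. The downstream share is 11.38% to 12.52% in R1R2_KO, above all libraries of both other groups, and the Hba-x side of control spans 45.3% to 50.8%.

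Per chromosome 11 reads, R4_KO had the lowest level of the 5 single knockouts in each part of the block. These groups have 1 library each and no replicate check, so no test was made. On the Hba-x side R1_KO held 12378, R2_KO 13923, R3_KO 12686, Rm_KO 12493 and R4_KO 11352. The part between the adult genes held 12859, 13155, 12784, 13388 and 11944 in the same order, and the downstream part 3480, 2966, 2960, 3170 and 2834. With reads within 500 kb as the scale R2_KO was lowest downstream (7531 of 188828 reads, against 10107 of 246009 in R4_KO). As a share of block reads the downstream part was also lowest in R2_KO (9.87%, against 10.8% in R4_KO). R4_KO lay at 0.882, 0.915 and 0.902 of the mean of the other 4 libraries. Over the 100 windows its ratio was 19th, 26th and 24th from the lowest in these parts, and the 3 control libraries of the other table spanned 11896 to 14330 on the Hba-x side, more than separates R4_KO from the next library. R2_KO was highest on the Hba-x side at 1.14 of the mean of the others, and R1_KO was highest downstream at 1.17. In R1_KO 78 of the 100 windows were above that mean, with a median log2 ratio of 0.22, the same as that of its downstream part. In R4_KO the median window lay at -0.01 and the parts at -0.18, -0.13 and -0.15.

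At single fragments R1_KO had 1 member higher and none lower by over 1.5-fold against the other single knockouts, beside 24.9% and 14.7% of the 1527 fragments within 500 kb that had 90 or more reads over the 6 unreplicated libraries. R2_KO had none higher and 1 lower, beside 19.3% and 26.5%. R3_KO, Rm_KO and R4_KO had none in either direction, beside 13.8% higher and 31.8% lower in R3_KO, 13.4% and 28.8% in Rm_KO, and 16.1% and 26.1% in R4_KO. Over the 5 libraries the median member held 7295 reads and the median of the 1527 fragments 102. Both exceptions are the same 26-base fragment, 32204913 to 32204938, with 7.89 reads per 100000 in R1_KO (1.54 of the mean of the others) and 1.97 in R2_KO (0.298). These 2 libraries hold 431064 and 253928 reads on this scale, so both values rest on few reads. Each library also enters the mean that the other is set against.

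Of the block, ES cells held less of the Hba-x side and of the part between the adult genes than each of the 5 single knockouts, and more of the downstream part. On the Hba-x side ES cells held 8971 (Wilson 95% interval 8897 to 9046), 0.714 of the mean of the single knockouts. For the part between the adult genes they held 9871 (9794 to 9949), a ratio of 0.770. Downstream they held 3497 (3450 to 3546), a ratio of 1.13, where R1_KO with 3480 lay within that interval. Each interval comes from 1 library and covers counting error only, not the spread between libraries. Reads may repeat the same molecule after PCR, so the intervals may be too narrow. Within the block the downstream share was 15.7% in ES cells and 9.87% to 12.1% in the single knockouts. The directions followed the scale: with all reads of the table the log2 ratios were -0.02, 0.09 and 0.65, and with chromosome 11 reads outside the cluster and the block -1.01, -0.90 and -0.34. Over the 100 windows within 500 kb the median ratio of ES cells to the single knockouts was 3.85, and all 3 parts of the block lay below it. Strain and cell type differ together here and cannot be told apart.

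Of the members, 4 lay over 1.5-fold in ES cells and 12 under it, where 67.9% and 14% of the 1527 fragments did. The 12 low ones were 10 of 31 on the Hba-x side and 2 of 19 between the adult genes, and the 4 high ones were all among the 11 downstream. The lowest was 32172143 to 32172436, with 141 in ES cells and 263 to 339 in the single knockouts (ratio 0.455). The last member before the second gap, 32192981 to 32194503, held 680 in ES cells and 1301 to 1515 in the single knockouts (0.489). The highest was the 26-base fragment at the downstream edge, 32204913 to 32204938, with 25.3 in ES cells against 1.97 to 7.89 (4.46). Next to it 32204939 to 32204979 held 39.1 (2.28), 32204782 to 32204912 held 159 (1.86) and the last of the 4, 32203108 to 32203405, held 265 (1.67). The median ratio of the members was 0.775, and of all 1527 fragments 2.82.

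**Figure D5:**
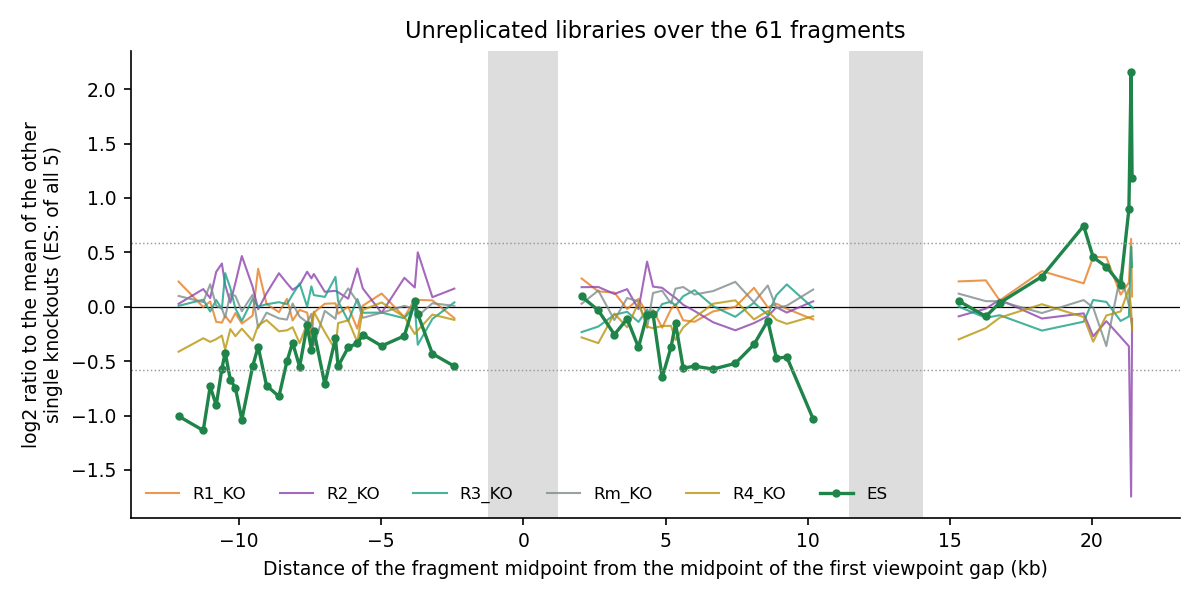
log2 ratio of each of the 61 fragments in every unreplicated library to the mean of the other single knockouts (ES cells to the mean of all 5), against distance in kb from the midpoint of the first gap; dotted lines mark 1.5-fold and grey bands the gaps. ES cells run below 0 at the far end of the Hba-x side (lowest ratio 0.455) and rise to a ratio of 4.46 at the downstream edge, while the single knockouts stay within 1.5-fold at all but the 26-base fragment.

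Levels of short fragments differed between the tables. The 9 members under 70 bases held 0.215 to 0.808 of the control mean in the mean of the single knockouts (median 0.634), and the other 52 held 0.797 to 1.38 (median 1.02). The tables were made apart, so no level of a short fragment was compared across them.

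Of all 10 kb windows within 500 kb, those whose level went most nearly with the Hba-x side over the 15 libraries were the 3 windows of the enhancer cluster (Pearson r of log2 levels 0.88 for 32140853 to 32151061, 0.85 for 32160753 to 32170701 and 0.76 for 32151062 to 32160752). The same windows led for the part between the adult genes (0.77, 0.56 and 0.73). These 3 windows hold the deleted elements, and all points share their libraries' scale. The Hba-x side and the part between the adult genes went together with r of 0.84, the Hba-x side and the downstream part with 0.08 (0.39 without ES cells), and the part between the adult genes and the downstream part with 0.53 (0.74 without ES cells). Over the 9 replicated libraries, which share a table, these values were 0.92, 0.12 and 0.39. Over these 15 libraries the window most like the downstream part was 32215333 to 32224324 (0.60). Over the 9 replicated libraries it gave 0.35, below 32655261 to 32665053 (0.57) and 32665054 to 32674951 (0.50). In these libraries 32655261 to 32665053 held only 4 to 30 reads each and 32665054 to 32674951 only 1 to 17. The window 32215333 to 32224324 held 793 to 1691. The values 0.57 and 0.50 thus rest on few reads, so no likeness to the downstream part is read from them. The window 32665054 to 32674951 was also not among those tested for change.

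From viewpoints on other chromosomes few reads fell on the block. From the adult β-globin promoters, 196 of 2528972 reads of the 14 erythroid libraries fell on the members (7.75 per 100000 reads of that table, Wilson 95% interval 6.74 to 8.91) and 4 of 286120 in ES cells (1.40, interval 0.544 to 3.59). From Slc25a37, which encodes a mitochondrial iron importer that red cells need, 38 of 1174508 did (3.24, interval 2.36 to 4.44) and 1 of 197967 in ES cells (0.505, interval 0.0892 to 2.86). Per library these were 0 to 53 and 0 to 18 reads, too few to compare groups, and the pooled intervals leave out the spread between libraries. Of the chromosome 11 reads of the 14 erythroid libraries the members held 0.273% of 71924 from β-globin and 0.125% of 30339 from Slc25a37, where the members are 0.0418% of the chromosome 11 fragments in the α-globin tables. In ES cells the members held 0.158% of 2538 from β-globin and 0.0413% of 2420 from Slc25a37. A share of fragments is not an expected share of reads, so no enrichment is read from these values.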

How the data were processed

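Per the file headers and the labels, the authors deposited raw read counts per DpnII fragment for each viewpoint, not scaled to depth, in mm9. Trim Galore and Bowtie are named in the submitters' processing notes, without a version in the sources used here. Control and both pairs share a table, and single knockouts and ES cells share a second; 7 columns of each control table match no sample here and were not used. The ES label carries the fetal liver protocol and names Slc25A38 where the others name Slc25A37. The headers number the R1R2_KO libraries from 1, the control libraries from 4 and the R2R3_KO libraries again from 1; whether this marks a run is not given.

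Levels are reads per 100000 chromosome 11 reads more than 2 kb from the gap midpoints. edgeR 4.0.16 (R 4.3.3; quasi-likelihood, these reads as library size, group as the only term, 9 libraries in 1 fit) tested 403 fragments with 90 or more reads within 500 kb and, apart, 99 windows. Benjamini-Hochberg adjustment ran within a contrast, at 0.05. DESeq2 1.42.0 and limma 3.58.1 (log2, pseudocount 1) were alternatives. The edgeR step was tested on simulated data. Members, parts and lists were chosen with earlier results of these data known. Named fragments are the 3 of each part with the highest control level per kb, up to 3 lowest and 3 highest called changes per contrast, and the extreme ratios past 1.5-fold in unreplicated libraries; others are named as edges, gap neighbours or neighbours of these. Replicate pairs differed beyond sampling noise (chi-square over degrees of freedom 1.51 to 3.55 over 9 pairs), so none was counted as a duplicate.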

Additional observations from a re-analysis of the deposited data

How the results depend on the processing

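Of the log2 changes from control, those of the Hba-x side and between the adult genes kept their direction in every alternative run. With the block's own reads as the scale (chosen after seeing the data) R1R2_KO gave -0.078, -0.0091 and 0.38 for the Hba-x side, between the adult genes and downstream, R2R3_KO gave -0.0023, -0.024 and 0.12, and R2R3_KO against R1R2_KO gave 0.076, -0.015 and -0.26. Reads within 500 kb gave 0.23 downstream in R1R2_KO, -0.083 (Hba-x side) and 0.037 (downstream) in R2R3_KO and -0.19 downstream between the pairs. All reads of the table gave 0.029 downstream in R1R2_KO, -0.20 in R2R3_KO and -0.23 between the pairs, where the Hba-x side gave 0.11. Chromosome 11 reads outside cluster and block gave -0.51 downstream in R1R2_KO and 0.23 between the adult genes between the pairs. TMM factors gave -0.68 and DESeq2 -0.73 downstream in R1R2_KO, and between the pairs 0.30 and 0.42 between the adult genes and 0.059 and 0.18 downstream. With 5 kb left out the downstream part gave 0.066 in R1R2_KO and -0.30 between the pairs, and the shares of the Hba-x side and downstream differed between the pairs by 2.94 and -2.89 points.

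Members called in R1R2_KO (37) were 21 with TMM factors, DESeq2 or all reads of the table, 10 with reads within 500 kb, 56 with chromosome 11 reads outside cluster and block and 24 with 5 kb left out. In R2R3_KO (19) they were 12 with TMM factors, DESeq2, 5 kb left out or the cluster's fragments out of the fit, 5 with reads within 500 kb, 51 with chromosome 11 reads outside cluster and block and 11 with no filter. Between the pairs (9) they were 4 with all reads of the table, 5 with no filter and 19 with only the groups compared. Adjusting over all fragments of the genome with 90 or more reads, also chosen after seeing the data, gave 36, 19 and 9. The scales differ in which reads they hold and 5 kb left out removes members; other causes were not tested.

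Leaving out 1 library gave 27 to 41 calls in R1R2_KO, 8 to 21 in R2R3_KO and 5 to 15 between the pairs (15 without control library 1, 5 without R2R3_KO library 3). Downstream changes ran from -0.075 to 0.0086 in R1R2_KO (above 0 without R1R2_KO library 1), -0.20 to -0.13 in R2R3_KO and -0.16 to -0.08 between the pairs. Between the adult genes the difference between the pairs ran from 0.070 to 0.15 and passed without control library 1. The downstream share in R1R2_KO differed from control by 2.49 to 3.24 points, that of R2R3_KO by 0.49 to 1.24, and the R2R3_KO shares of the Hba-x side and between the adult genes by -1.28 to 1.496 and -1.99 to 0.042.

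Deviations of same-numbered libraries correlated by -0.047 to 0.23 (median 0.079) and of different-numbered ones by -0.18 to 0.076. For control with R1R2_KO all 3 same-numbered values (0.23, 0.090 and 0.11) exceeded the different-numbered ones, a hint from the data; no pair of groups had every value over 0.1, so pairing was not taken as established. A replicate block gave 37, 19 and 12 called members and changed no call of a part (Hba-x side -0.28 in R2R3_KO).

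ES cells against the single knockouts gave, for the Hba-x side, between the adult genes and downstream, -0.46, -0.35 and 0.21 with reads within 500 kb, -0.018, 0.095 and 0.65 with all reads of the table, -1.01, -0.90 and -0.34 with chromosome 11 reads outside cluster and block, and -0.62, -0.54 and 0.43 with 5 kb left out. Members past 1.5-fold in ES cells (16) were 9 with all reads of the table and 50 with chromosome 11 reads outside cluster and block; all reads gave 6 in R2_KO and 1 in R4_KO, and the latter scale 0 in R1_KO. Counting error limits the shortest fragments, where the unreplicated libraries hold as few as 1.97 reads per 100000.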
